A study of Sus scrofa with 12 samples.

Results

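The genes of the nuclear pore and of the soluble machinery that carries proteins and RNA through it were followed across 12 SMART-seq libraries of porcine (Sus scrofa) embryos. Members were chosen by symbol alone: nucleoporins named NUP with a number, importins alpha and beta (KPNA, KPNB, IPO), transportins (TNPO), exportins (XPO), the Ran regulators RANBP1, RANGAP1 and RCC1, and the pore proteins RANBP2, NDC1, TPR, SEH1L and RAE1. The rule found 53 of the 29329 genes in the table, each on 1 row, and all 53 were among the 17995 genes tested. RAN and POM121, which the rule also names, were not analysed here. By role the 53 comprised 28 nuclear pore proteins, 22 transport receptors and 3 regulators of the Ran cycle.

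The libraries fell into 4 groups of 3, named here by their titles: con-2c and con-4c from embryos with the treatment label blank control, and si-2c and si-4c from embryos with the treatment label si-CCNB2, a short interfering RNA directed at the transcript of CCNB2 (cyclin B2, a cyclin of mitosis). By the methods of the study the embryos came from in vitro fertilisation, the siRNA was microinjected, a library was made from a pool of embryos, and the controls were described both as normal and as the NC (negative control) group, so whether they received an injection is uncertain and an effect of injection cannot be told apart from that of the siRNA. In all 12 libraries the title and the tissue field disagree about the stage, since the tissue is given as 4-cell embryos where the title has 2c and as 2-cell embryos where it has 4c. Reading the tissue label instead would turn the sign of every difference between stages and would leave the comparisons of si with control libraries within a stage in place under the other stage name.

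The nuclear pore complex is a ring of nucleoporins that spans both membranes of the nuclear envelope. Its scaffold consists of the Y complex and the inner ring, its channel is filled with flexible phenylalanine-glycine repeats, and filaments and a basket extend from its cytoplasmic and nuclear faces. Importins bind cargo in the cytoplasm, exportins bind it in the nucleus, and the small GTPase Ran, loaded with GTP in the nucleus by RCC1 and stimulated to hydrolyse it in the cytoplasm by RANGAP1, sets the direction of transport. In cleaving embryos the envelope and its pores are taken apart and rebuilt at each mitosis, and import of maternal proteins into the new nuclei precedes transcription from the embryonic genome.

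Expression is given as CPM, the deposited count divided by the library total (scaled to a common size) after correction by TMM, a method that equalises the bulk of genes between libraries, so that values compare libraries within a gene and not genes with each other. Library totals were between 27785233 and 39510908 counts, and the members took between 0.795% and 1.07% of them. CCNB2 (ENSSSCG00000004588) had 463, 487 and 444 CPM in the con-2c libraries, 510.4, 485 and 429 in those of con-4c, 17.8, 28.8 and 21.6 in those of si-2c and 40.7, 46.8 and 40.3 in those of si-4c. It was lower in si-2c relative to con-2c (edgeR log2 fold change -4.36 with SE 0.15, adjusted p 1.53e-12) and lower in si-4c relative to con-4c (-3.48 (SE 0.14, adjusted p 5.14e-12)), and all 6 si libraries lay below all 6 control libraries. The same held across titles, at -3.45 (SE 0.14, adjusted p 4.43e-10) for si-4c against con-2c and -4.39 (SE 0.15, adjusted p 2e-11) for si-2c against con-4c. CCNB2 was higher in si-4c relative to si-2c, at 0.91 (SE 0.13, adjusted p 5.63e-05), and the control stage comparison gave 0.03 (SE 0.12, adjusted p 0.879).

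Cell type markers were examined before the members. All 11 oocyte and early embryo markers in the table had counts in every group, and their summed level was 19404 to 24526 CPM in con-2c, 9659 to 10524 CPM in con-4c, 9943 to 11642 CPM in si-2c and 22498 to 24673 CPM in si-4c. Of 9 markers of cumulus or granulosa cells, CYP11A1, FOXL2 and HAS2 were at 0 in con-2c, si-2c and si-4c, PTX3 was also at 0 in con-2c, and all 9 had counts in con-4c. Their sum was 291 to 368 CPM in con-2c, 175 to 186 CPM in con-4c, 169 to 197 CPM in si-2c and 291 to 300.0 CPM in si-4c. Of the 5 that were tested, PTX3 was called higher in si-2c relative to con-2c, with 74 counts over the si-2c libraries. TNFAIP6 was called lower in si-4c relative to con-4c, with 9 counts over the si-4c libraries and 95 over those of con-4c. The 4 sperm markers summed to at most 16.5 CPM, with ODF2 making up 87.2% to 100% of the sum and AKAP4 and SPATA18 at 0 in con-2c and si-4c. AKAP4 had 32 counts over the con-4c libraries and 84 over those of si-2c. It was called higher in both groups relative to con-2c and lower in si-4c relative to con-4c. HBB, a blood marker, was at 0 in con-2c and si-2c. The 4 blood or immune markers summed to 0.327 to 0.573 CPM in con-2c, 2.32 to 3.19 CPM in con-4c, 0.901 to 1.53 CPM in si-2c and 0.570 to 0.810 CPM in si-4c. Of the 3 that were tested, PTPRC and CD14 were called higher in con-4c relative to con-2c and, with con-4c as the reference, lower in si-4c, and every con-4c and si-2c library of CD14 lay above every library of the other groups. Both of the larger sums were set by single genes, since BTG4 made up 70.2% to 84.8% of the oocyte sum and VCAN 98% to 99.8% of the cumulus sum. Of the 11 oocyte markers 5 (BTG4, GDF9, OOEP, ZP3 and ZP4) stood higher in every con-2c and si-4c library than in any con-4c or si-2c library and the other 6 overlapped, among them BMP15, with 887 ± 45.3 CPM in the con-2c libraries, 985 ± 25.3 in those of con-4c, 1228 ± 69.3 in those of si-2c and 1046 ± 37.2 in those of si-4c (mean ± SD, n = 3 libraries). Of the 9 cumulus markers VCAN alone divided the libraries in this way and 8 overlapped. The same division of the libraries recurs in members described below. The part of the shift in these markers in the members' results was not tested, and in pools of whole embryos a change in cell make-up and a change in RNA per cell cannot be told apart.

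Some differences are referred to by name. The control stage comparison sets con-4c against con-2c, the si stage comparison sets si-4c against si-2c, the 2c si comparison sets si-2c against its control con-2c, and the 4c si comparison sets si-4c against its control con-4c. A member was called where its edgeR adjusted p was below 0.05 and its log2 fold change at least 1 in size. Since many members moved by less than that, the counts at an adjusted p below 0.05 alone are given beside them, and the words higher and lower below refer to the latter unless a call is named. The labels do not say that the libraries of a group came from separate cultures, so the p-values measure the spread between these libraries.

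To ask how the transport machinery differed between the control stages, con-4c was set against con-2c (the control stage comparison). Transport receptors were mostly higher in con-4c, while pore proteins went in both directions with more of them lower. KPNA4, KPNB1, IPO4 and IPO9 were called higher, and NUP37, NUP42 and NUP43 were called lower. Thus 4 of 53 members were called higher against 14.4% of all genes tested, and 3 were called lower against 3.25%. At the adjusted p alone 17 members were higher (20.7% of all genes) and 12 were lower (15.1%). The libraries of the 2 groups did not overlap in 36 members, against 48.6% of all genes.

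Of the 22 transport receptors 12 were higher and 2 lower in con-4c, with a median log2 fold change of 0.42, and scaling by library totals left 16 higher and 1 lower. Of the 28 pore proteins 5 were higher and 10 lower with a median of -0.09 under TMM, but 9 were higher and 7 lower with a median of 0.19 under library totals. Relative to the median of all genes the pore proteins stood at -0.20 under TMM and -0.19 under library totals, so the sign of the class turned with the shift of all genes while its place among them stayed. That scaling moved the median of all genes from 0.11 to 0.38, and the median of all members from 0.18 to 0.45. With library totals 29.2% of all genes were higher and 7.37% lower. The members that no longer passed under it were KPNA2, NUP107, RANBP2 and TPR. Of the members named below, TNPO3 lost its pass in this comparison in 8 of the 12 reruns that each left out 1 library, TNPO2 in 5, NUP107 in 4, NUP133 in 3, and IPO8 and NUP93 in 2 each. TNPO3 also lost it with the replicate number as a block. No test of one class against another was made.

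To ask what changed with si-CCNB2 under the 2c title, si-2c was set against con-2c (the 2c si comparison). Pore proteins made up nearly all of the lower members and receptors most of the higher ones. KPNA4, KPNB1 and IPO4 were called higher (3 of 53 members, against 10.7% of all genes), and NUP37 was called lower (1 member, against 1.8%). By the adjusted p alone, 9 members were higher (16.6% of all genes) and 15 were lower (12.3%), and the libraries did not overlap in 26 members, against 41.7% of all genes. Of the pore proteins 2 were higher and 14 lower with a median log2 fold change of -0.20, whereas library totals gave 8 higher, 4 lower and a median of 0.21 (33.6% higher and 3.77% lower among all genes). Relative to the median of all genes these medians were -0.32 and -0.31. Of the receptors 7 were higher and 1 lower, and library totals gave 16 and 0. Under that scaling the median of all genes moved from 0.12 to 0.52, NDC1, NUP88 and TPR changed sign, and 11 of the 24 members that had passed no longer did (NDC1, NUP35, NUP54, NUP88, NUP107, NUP160, NUP188, RAE1, RANBP2, TNPO1 and TPR). With 1 library left out, NUP88 and NUP153 lost their pass in 10 of 12 reruns, NUP107 in 3, NDC1, NUP188 and XPO5 in 2 each and XPO7 in 1, and a fit to the compared groups alone lost NUP88, NUP107, NUP153 and NUP188.

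Under the 4c title, si-4c was set against con-4c (the 4c si comparison). Here pore proteins were more often higher and receptors more often lower. NUP37 and NUP42 were called higher (2 of 53 members, against 3.12% of all genes), and KPNA4, KPNB1, IPO4, IPO5 and IPO9 were called lower (5 members, against 15.8%). With no minimum fold 14 members were higher (15.1% of all genes) and 15 were lower (21.7%), and the libraries did not overlap in 38 members, against 50.9% of all genes. Among the pore proteins 12 were higher and 5 lower with a median log2 fold change of 0.11 under TMM, but library totals gave 7 higher, 7 lower and a median of -0.15 (7.61% higher and 29.4% lower among all genes). Relative to the median of all genes both medians were 0.22. Among the receptors 2 were higher and 10 lower with a median of -0.29, and library totals gave 2 higher and 15 lower. The median of all genes moved from -0.11 to -0.37 with that scaling, and NUP35, NUP107, NUP160, RANBP2 and TPR no longer passed. With 1 library left out, TNPO3 lost its pass in 7 of 12 reruns, KPNA3 in 6, NUP107 in 3, and NUP93 and NUP160 in 2 each. TNPO3 and KPNA3 also lost it with the replicate number as a block. This comparison shares its con-4c libraries with the first, and the 2c si comparison shares the con-2c libraries with the first, so the 3 are not independent of each other.

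**Figure D1:**
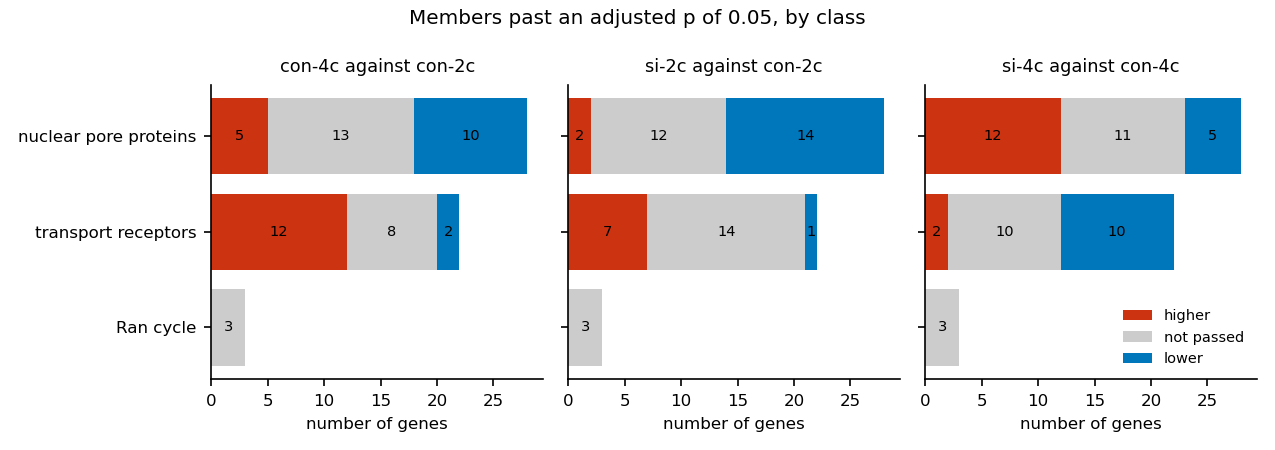
Number of members that passed an edgeR adjusted p of 0.05 in each comparison, by class (bars: higher in red, not passed in grey, lower in blue). The 22 transport receptors were mostly higher in con-4c (12 higher, 2 lower) and more often lower than higher in si-4c (2 higher, 10 lower, 10 not passed), while the counts of the 28 pore proteins (5 and 10, 2 and 14, 12 and 5) became 9 and 7, 8 and 4, and 7 and 7 under scaling by library totals, which shifts all genes alike.

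The Y complex is the outer scaffold of the pore, and it also sits at kinetochores in mitosis. NUP37 (ENSSSCG00000000860, chromosome 5, 82091439 to 82144463 in Sscrofa11.1), a peripheral subunit of it, had 404, 391 and 292 CPM in the con-2c libraries, 128, 151 and 144 in those of con-4c, 124, 151 and 179.8 in those of si-2c and 464, 438 and 398 in those of si-4c. All con-2c and si-4c libraries lay above all con-4c and si-2c libraries. The level in con-4c was 0.389 of that in con-2c (edgeR log2 fold change -1.36 with SE 0.13, adjusted p 4.62e-07), and the 2c si comparison gave -1.26 (SE 0.13, adjusted p 1.92e-06). In si-4c it was 3.07-fold that in con-4c (edgeR log2 fold change 1.62 with SE 0.13, adjusted p 6.25e-08). Under library totals the si-2c difference was -0.85, which passed the adjusted p but not the minimum fold.

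NUP43 (ENSSSCG00000004105, chromosome 1, 16249493 to 16267636), another peripheral subunit, had 92.3, 82.4 and 62.3 CPM in the con-2c libraries, 38.0, 34.7 and 36.8 in those of con-4c, 36.0, 36.9 and 51.2 in those of si-2c and 78.1, 73.2 and 66.9 in those of si-4c. Its libraries divided in the same way, without overlap. The log2 fold change was -1.11 (SE 0.14, adjusted p 1.13e-05) in the control stage comparison, -0.93 (SE 0.14, adjusted p 9.58e-05) in the 2c si comparison and 0.995 (SE 0.14, adjusted p 3.71e-05) in the 4c si comparison, the last of these just under the minimum fold. The con-4c call was lost without con-2c replicate 1 (-0.99) and under library totals (-0.83), with the direction kept.

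The stalk and arms of the Y complex moved less. NUP133, a stalk subunit, was higher in con-4c relative to con-2c (edgeR log2 fold change 0.26 with SE 0.07, adjusted p 0.0124), and it had 177 ± 9.42 CPM in the con-2c libraries, 211 ± 10.2 in those of con-4c, 219.9 ± 6.20 in those of si-2c and 175 ± 9.58 in those of si-4c (mean ± SD, n = 3 libraries). NUP107, its partner in the stalk, was lower in con-4c at -0.35 (SE 0.12, adjusted p 0.0275) and had 148 ± 17.0 CPM in the con-2c libraries, 116 ± 4.92 in those of con-4c, 111 ± 21.9 in those of si-2c and 148 ± 8.76 in those of si-4c. These neighbours in the same complex thus had differences of opposite sign between the control stages, although that of NUP107 did not pass under RLE factors or library totals and that of NUP133 did not pass without con-2c replicate 2, con-4c replicate 2 or con-4c replicate 3. NUP160 had -0.25 (SE 0.10, adjusted p 0.0573) in that comparison, -0.42 (SE 0.10, adjusted p 0.00388) in the 2c si comparison and 0.35 (SE 0.10, adjusted p 0.0107) in the 4c si comparison. SEH1L passed in no comparison, and NUP85 passed in the si stage comparison alone, at 0.38 (SE 0.13, adjusted p 0.043), a pass lost in 9 of 12 reruns with 1 library left out.

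In the inner ring, NUP155 (ENSSSCG00000016845, chromosome 16, 22520443 to 22590119), which anchors the ring to the membrane, had 87.2, 73.3 and 79.4 CPM in the con-2c libraries, 43.4, 47.6 and 51.3 in those of con-4c, 49.6, 47.5 and 49.4 in those of si-2c and 73.4, 80.4 and 85.9 in those of si-4c. Again no con-4c or si-2c library reached the lowest con-2c or si-4c library. The log2 fold change was -0.75 (SE 0.09, adjusted p 6.8e-06) in the control stage comparison, -0.71 (SE 0.09, adjusted p 1.82e-05) in the 2c si comparison and 0.75 (SE 0.09, adjusted p 6.95e-06) in the 4c si comparison. NUP35, another inner ring protein with a membrane-binding end, had 610.2 ± 81.6 CPM in the con-2c libraries, 525 ± 36.7 in those of con-4c, 411 ± 70.1 in those of si-2c and 751 ± 54.9 in those of si-4c. It was lower in si-2c relative to con-2c (edgeR log2 fold change -0.57 with SE 0.12, adjusted p 0.00134) and si-4c was above con-4c, at 0.52 (SE 0.12, adjusted p 0.00217), and the control stage comparison gave -0.22 (SE 0.12, adjusted p 0.166). NUP93, the linker of the ring, went the other way, at 0.40 (SE 0.12, adjusted p 0.0175) in the control stage comparison and -0.40 (SE 0.12, adjusted p 0.0155) in the 4c si comparison. NUP188 was lower in si-2c (-0.47 (SE 0.15, adjusted p 0.0234)), and NUP205 passed in no comparison, with group means between 21.4 and 26.8 CPM.

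The channel is lined by NUP54, NUP58 and NUP62. NUP54 (ENSSSCG00000008979) had 140.3, 139.9 and 129.9 CPM in the con-2c libraries, 94.8, 90.8 and 88.1 in those of con-4c, 84.1, 81.1 and 100.1 in those of si-2c and 129, 143 and 147 in those of si-4c. The con-2c and si-4c libraries were all above the con-4c and si-2c libraries, with log2 fold changes of -0.58 (SE 0.09, adjusted p 6.09e-05), -0.63 (SE 0.09, adjusted p 4.06e-05) and 0.61 (SE 0.09, adjusted p 3.56e-05) in the control stage, 2c si and 4c si comparisons. Its partner NUP58 had 39.4 ± 4.30 CPM in the con-2c libraries, 39.3 ± 5.89 in those of con-4c, 40.6 ± 2.95 in those of si-2c and 39.6 ± 5.50 in those of si-4c, and its log2 fold change was 0.00 (SE 0.13, adjusted p 0.99) in the control stage comparison. NUP62 was counted rarely, with 38 counts over the 3 con-2c libraries, 92 over those of con-4c, 96 over those of si-2c and 63 over those of si-4c, and did not pass in any comparison. NUP62CL, a NUP62-like gene, had 11, 66, 93 and 4 counts in the same order, all of the con-2c counts in 1 library and all of the si-4c counts in 1 library. Such counts leave wide errors, and a fold fitted to those of NUP62CL depends on the prior count.

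On the cytoplasmic face, NUP42 (ENSSSCG00000023793), which assists the helicase that strips proteins from exported mRNA, had 44.3, 42.1 and 39.2 CPM in the con-2c libraries, 21.9, 17.9 and 18.6 in those of con-4c, 25.2, 23.3 and 25.5 in those of si-2c and 40.3, 42.4 and 43.2 in those of si-4c. The 2 ranges, con-2c with si-4c above and con-4c with si-2c below, did not meet. The log2 fold change was -1.11 (SE 0.10, adjusted p 2.04e-07) in the control stage comparison, -0.76 (SE 0.10, adjusted p 1.81e-05) in the 2c si comparison and 1.11 (SE 0.10, adjusted p 1.96e-07) in the 4c si comparison. Under library totals the first and the last were -0.83 and 0.85, below the minimum fold. RAE1 (ENSSSCG00000007503), an mRNA export factor that also acts at the spindle, had 343, 288 and 309.9 CPM in the con-2c libraries, 189, 203 and 191 in those of con-4c, 206, 219.9 and 219.8 in those of si-2c and 373, 354 and 331 in those of si-4c. Its con-4c level was below that of con-2c (edgeR log2 fold change -0.69 with SE 0.08, adjusted p 3.15e-06), as was that of si-2c, at -0.54 (SE 0.08, adjusted p 6.11e-05), and si-4c was above con-4c, at 0.86 (SE 0.08, adjusted p 2.44e-07).

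RANBP2 (ENSSSCG00000008136), the large filament protein that binds Ran and holds a SUMO ligase domain, had 84.7, 85.2 and 86.9 CPM in the con-2c libraries, 63.6, 69.5 and 66.4 in those of con-4c, 55.6, 48.8 and 57.8 in those of si-2c and 81.9, 91.0 and 84.8 in those of si-4c. Here the si-2c libraries were lowest and did not overlap with con-4c. Its log2 fold change was -0.36 (SE 0.08, adjusted p 0.00246) in the control stage comparison, -0.66 (SE 0.08, adjusted p 1.28e-05) in the 2c si comparison and 0.37 (SE 0.08, adjusted p 0.00215) in the 4c si comparison, and none of the 3 passed under library totals. NUP214, a filament protein with many repeats, had 2417, 2526 and 2332 CPM in the con-2c libraries, 3309, 3074 and 3007 in those of con-4c, 2150.2, 2379 and 2212 in those of si-2c and 2746, 2443 and 2500.3 in those of si-4c. It stood highest in the con-4c libraries, above every library of the other groups, at 0.37 (SE 0.07, adjusted p 0.000836) against con-2c, and the 4c si comparison gave -0.29 (SE 0.07, adjusted p 0.0055). NUP98, the partner of RAE1 at the pore, was likewise highest in con-4c, with 17.7 ± 1.49 CPM in the con-2c libraries, 24.6 ± 1.20 in those of con-4c, 17.9 ± 0.591 in those of si-2c and 17.7 ± 0.887 in those of si-4c. NUP88, which holds NUP214 at the pore, was lower in si-2c relative to con-2c at -0.23 (SE 0.08, adjusted p 0.0455), a difference that changed sign under library totals. That difference also did not pass with RLE factors, without a filter on low counts or with the replicate block.

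Of the basket proteins, TPR was lower and NUP153 higher in con-4c under TMM, and the difference of TPR did not pass under library totals. TPR (ENSSSCG00000015576), the fibre of the basket, had 115, 117 and 108 CPM in the con-2c libraries, 91.2, 89.8 and 86.9 in those of con-4c, 84.8, 90.7 and 84.1 in those of si-2c and 121, 118 and 116 in those of si-4c. No con-4c or si-2c library reached 108 CPM, the lowest of the others, and the log2 fold changes were -0.35 (SE 0.07, adjusted p 0.00101), -0.39 (SE 0.07, adjusted p 0.000463) and 0.41 (SE 0.07, adjusted p 0.000244) in the control stage, 2c si and 4c si comparisons, none of which passed under library totals. NUP153 (ENSSSCG00000026034), which joins the basket to the ring, had 90.7, 82.8 and 87.6 CPM in the con-2c libraries, 119, 127 and 123 in those of con-4c, 105, 91.2 and 113 in those of si-2c and 95.1, 105 and 99.7 in those of si-4c. It was higher in con-4c relative to con-2c (edgeR log2 fold change 0.50 with SE 0.09, adjusted p 0.000196), higher in si-2c at 0.25 (SE 0.09, adjusted p 0.0394) and lower in si-4c relative to con-4c at -0.30 (SE 0.09, adjusted p 0.0105). The si-2c difference also did not pass without a filter on low counts or with the replicate block. The third basket protein, NUP50, had group means between 42.7 and 46.5 CPM and passed in no comparison.

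Of the membrane proteins of the pore, NDC1 (ENSSSCG00000028748) had 169, 168 and 141 CPM in the con-2c libraries, 97.4, 115 and 105 in those of con-4c, 110.0, 119.5 and 138 in those of si-2c and 143, 169 and 169 in those of si-4c. The lowest con-2c library and the highest si-2c library lay close together but did not overlap. The log2 fold change was -0.59 (SE 0.11, adjusted p 0.000265) in the control stage comparison, -0.38 (SE 0.10, adjusted p 0.0108) in the 2c si comparison and 0.60 (SE 0.11, adjusted p 0.000255) in the 4c si comparison, and the si-2c value changed sign under library totals. NUP210 and NUP210L had group means of at most 0.534 and 1.54 CPM and passed in no comparison.

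**Figure D2:**
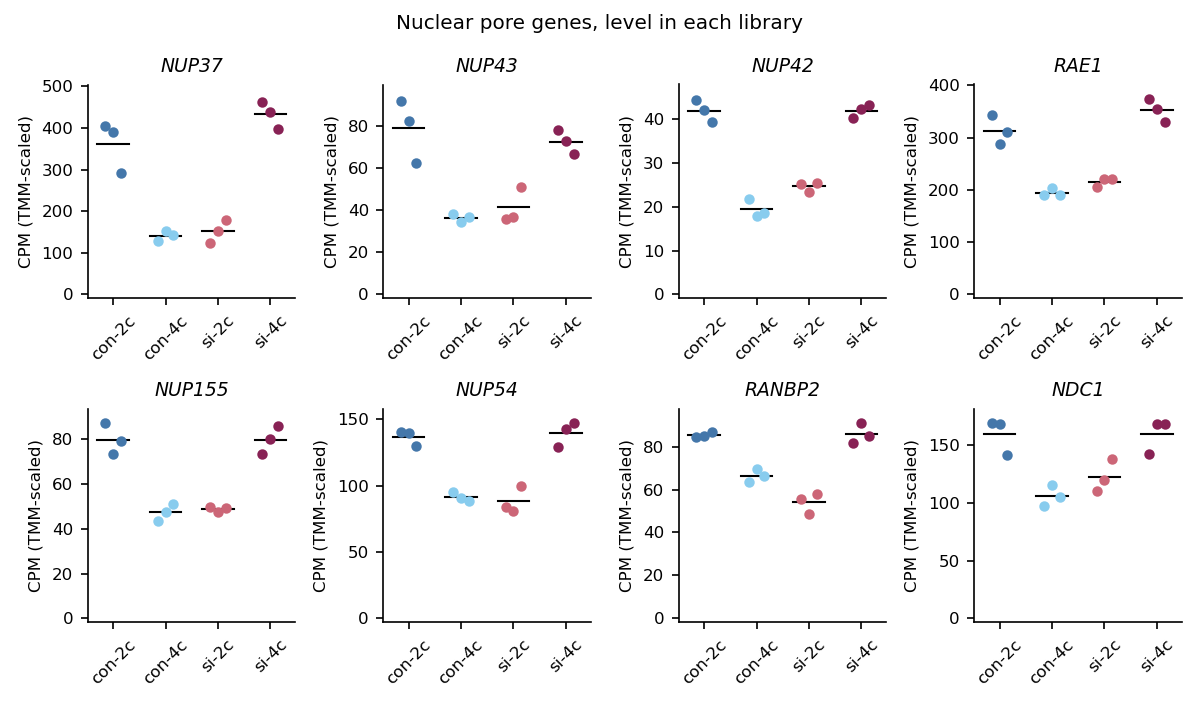
CPM (TMM-scaled, linear axes from 0) of 8 nuclear pore genes in each of the 12 libraries; points are libraries and bars are means of 3. In NUP37, NUP43, NUP42, RAE1, NUP155, NUP54, RANBP2 and NDC1 every con-2c and si-4c library lay above every con-4c and si-2c library. The 8 genes do not stand for all pore genes. NUP133 and NUP153, not shown, were higher in con-4c and si-2c relative to con-2c, and NUP50, NUP58, NUP205 and SEH1L passed in no comparison.

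Importins alpha are the adaptors that recognise the classical nuclear localisation signal and hand it to importin beta. KPNA4 (ENSSSCG00000031077, chromosome 13, 100185081 to 100253077) had 2.07, 2.41 and 1.75 CPM in the con-2c libraries, 14.6, 13.5 and 19.6 in those of con-4c, 8.67, 11.1 and 11.5 in those of si-2c and 3.33, 1.42 and 3.46 in those of si-4c. The con-4c and si-2c libraries were all above the con-2c and si-4c libraries, and con-4c was above si-2c in every library. Con-4c stood 7.64-fold above con-2c (edgeR log2 fold change 2.93 with SE 0.28, adjusted p 3.08e-07) and si-2c 5.01-fold above con-2c, at 2.33 (SE 0.27, adjusted p 6.2e-06). In si-4c the level was 0.172 of that in con-4c (edgeR log2 fold change -2.54 with SE 0.27, adjusted p 1.22e-06). These calls held in every alternative and with each library left out.

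KPNA2 (ENSSSCG00000029005, chromosome 12, 14283092 to 14296749), an importin alpha of cycling cells and oocytes, had 2144, 1733 and 1544 CPM in the con-2c libraries, 1273, 1289.9 and 1280.5 in those of con-4c, 1327, 1472 and 1750.2 in those of si-2c and 2094, 2087 and 1890.2 in those of si-4c. Con-4c was below con-2c and below si-4c in every library, while si-2c overlapped con-2c. It was lower in con-4c relative to con-2c (edgeR log2 fold change -0.50 with SE 0.11, adjusted p 0.00213), a difference that did not pass under library totals, and si-4c was above con-4c, at 0.66 (SE 0.11, adjusted p 0.000182). The si-2c difference, -0.25 (SE 0.11, adjusted p 0.104), did not pass.

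KPNA3 (ENSSSCG00000024125), the closest relative of KPNA4, had 480.3, 411 and 421 CPM in the con-2c libraries, 572, 617 and 588 in those of con-4c, 587, 579 and 688 in those of si-2c and 455, 542 and 497 in those of si-4c. Its con-4c and si-2c libraries overlapped each other and lay above all con-2c and si-4c libraries, at 0.44 (SE 0.09, adjusted p 0.00106) in the control stage comparison, 0.50 (SE 0.09, adjusted p 0.000456) in the 2c si comparison and -0.25 (SE 0.09, adjusted p 0.0392) in the 4c si comparison. KPNA7 (ENSSSCG00000007607, chromosome 3, 6167382 to 6201282), the importin alpha known from oocytes and cleavage embryos, had 1113, 866 and 1141 CPM in the con-2c libraries, 1049, 1012 and 980.4 in those of con-4c, 923, 998 and 1008 in those of si-2c and 1186, 1119.6 and 1063 in those of si-4c. The libraries of its groups overlapped except si-4c with con-4c and si-2c, and the log2 fold changes were -0.04 (SE 0.09, adjusted p 0.808), -0.09 (SE 0.09, adjusted p 0.532) and 0.15 (SE 0.09, adjusted p 0.24) in the same order. None of them passed.

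The other importins alpha passed in none of these 3 comparisons. KPNA1 had 9.35 ± 3.11 CPM in the con-2c libraries, 13.8 ± 2.93 in those of con-4c, 7.57 ± 1.64 in those of si-2c and 9.10 ± 1.25 in those of si-4c, with 0.56 (SE 0.24, adjusted p 0.081) in the control stage comparison, -0.30 (SE 0.24, adjusted p 0.401) in the 2c si comparison and -0.60 (SE 0.24, adjusted p 0.0614) in the 4c si comparison. KPNA6 gave 0.11 (SE 0.10, adjusted p 0.417), 0.27 (SE 0.10, adjusted p 0.0541) and 0.02 (SE 0.10, adjusted p 0.908) in the same order. KPNA5 gave 0.14 (SE 0.23, adjusted p 0.695), 0.17 (SE 0.23, adjusted p 0.665) and 0.16 (SE 0.23, adjusted p 0.641). Of 7 importins alpha, 2 were therefore higher and 1 lower in con-4c relative to con-2c, 2 higher and 0 lower in si-2c relative to con-2c, and 1 higher and 2 lower in si-4c relative to con-4c. The shares of all genes higher and lower were 20.7% and 15.1%, 16.6% and 12.3%, and 15.1% and 21.7% in the same order.

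Among the importin beta family, KPNB1 (ENSSSCG00000017514, chromosome 12, 23915783 to 23945407) is importin beta 1 itself, the carrier for all importin alpha cargo. It had 7.73, 7.61 and 10.1 CPM in the con-2c libraries, 22.0, 22.9 and 26.3 in those of con-4c, 21.6, 21.5 and 17.1 in those of si-2c and 10.9, 10.5 and 12.1 in those of si-4c. The lowest si-2c library stood above the highest si-4c library, and con-4c lay above both. It was 2.80-fold higher in con-4c relative to con-2c (edgeR log2 fold change 1.48 with SE 0.15, adjusted p 4.8e-07), 2.37-fold higher in si-2c relative to con-2c, at 1.24 (SE 0.15, adjusted p 5.54e-06), and at 0.471 of the con-4c level in si-4c, at -1.08 (SE 0.14, adjusted p 1.4e-05). These calls also held in every alternative.

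IPO4 (ENSSSCG00000002000, chromosome 7, 75109844 to 75118739), a carrier of histones and ribosomal proteins, had no count in any con-2c or si-4c library. It had 60, 117 and 66 counts in the con-4c libraries and 69, 52 and 66 in the si-2c libraries, which is 1.97, 3.88 and 2.15 CPM and 1.68, 1.39 and 1.42 CPM. With a floor of 3 counts over the 3 libraries of the group at 0, con-4c was at least 86.6-fold higher than con-2c and si-2c at least 48.7-fold higher than con-2c (edgeR adjusted p 2.86e-06 and 1.24e-05). Con-4c was at least 89.9-fold and si-2c at least 50.6-fold higher than si-4c (edgeR adjusted p 2.72e-06 and 1.21e-05). Its level where present was low, and a count of 0 over the 3 libraries allows up to 0.0307 CPM in con-2c and up to 0.0296 CPM in si-4c, limits that cover counting error only.

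IPO9 (ENSSSCG00000039843, chromosome 10, 24110126 to 24150294), a carrier of core histones, had 4.04, 2.44 and 4.58 CPM in the con-2c libraries, 9.15, 8.29 and 7.93 in those of con-4c, 4.46, 6.86 and 3.84 in those of si-2c and 4.59, 4.22 and 2.69 in those of si-4c. Con-4c lay above all libraries of the other groups. It was called higher in con-4c relative to con-2c (edgeR log2 fold change 1.20 with SE 0.27, adjusted p 0.00242) and lower in si-4c relative to con-4c, at -1.14 (SE 0.27, adjusted p 0.00337), and the calls were lost without con-2c replicate 2 (0.97) and without si-4c replicate 3 (-0.94) respectively. IPO5 (ENSSSCG00000009509, chromosome 11, 67019299 to 67059375), which carries ribosomal proteins and histones, had 6.65, 6.30 and 4.89 CPM in the con-2c libraries, 13.4, 8.65 and 12.2 in those of con-4c, 6.26, 6.16 and 6.20 in those of si-2c and 6.03, 5.03 and 5.17 in those of si-4c. It too was highest in con-4c, in every library. The difference was 0.94 (SE 0.19, adjusted p 0.000749) in the control stage comparison and -1.08 (SE 0.19, adjusted p 0.000229) in the 4c si comparison, and the latter call was lost without con-4c replicate 1 (-0.94).

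IPO11, the carrier of ubiquitin-conjugating enzymes, was also highest in con-4c, with 25.5 ± 4.63 CPM in the con-2c libraries, 38.6 ± 2.93 in those of con-4c, 28.5 ± 3.23 in those of si-2c and 21.8 ± 3.52 in those of si-4c. Its log2 fold changes were 0.60 (SE 0.14, adjusted p 0.00346) in the control stage comparison and -0.82 (SE 0.14, adjusted p 0.000244) in the 4c si comparison. TNPO1 (ENSSSCG00000027293), transportin 1, which imports RNA-binding proteins, was an exception in the family, with 340.1, 427 and 289 CPM in the con-2c libraries, 217, 217 and 200.2 in those of con-4c, 184, 193 and 267 in those of si-2c and 309, 349 and 321 in those of si-4c. All of its con-2c and si-4c libraries lay above the rest, and the log2 fold changes were -0.73 (SE 0.14, adjusted p 0.000461), -0.71 (SE 0.14, adjusted p 0.000822) and 0.63 (SE 0.14, adjusted p 0.00175) in the control stage, 2c si and 4c si comparisons. Its paralogue TNPO2 went the other way, at 0.68 (SE 0.22, adjusted p 0.026) and -0.82 (SE 0.22, adjusted p 0.00841) in the first and the last of these. TNPO3, the carrier of splicing factors of the SR family, gave 0.31 (SE 0.12, adjusted p 0.0472) and -0.32 (SE 0.12, adjusted p 0.0384). IPO8 was higher in con-4c and si-2c relative to con-2c, at 0.34 (SE 0.10, adjusted p 0.0153) and 0.42 (SE 0.10, adjusted p 0.00526), and IPO7 did not pass.

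**Figure D3:**
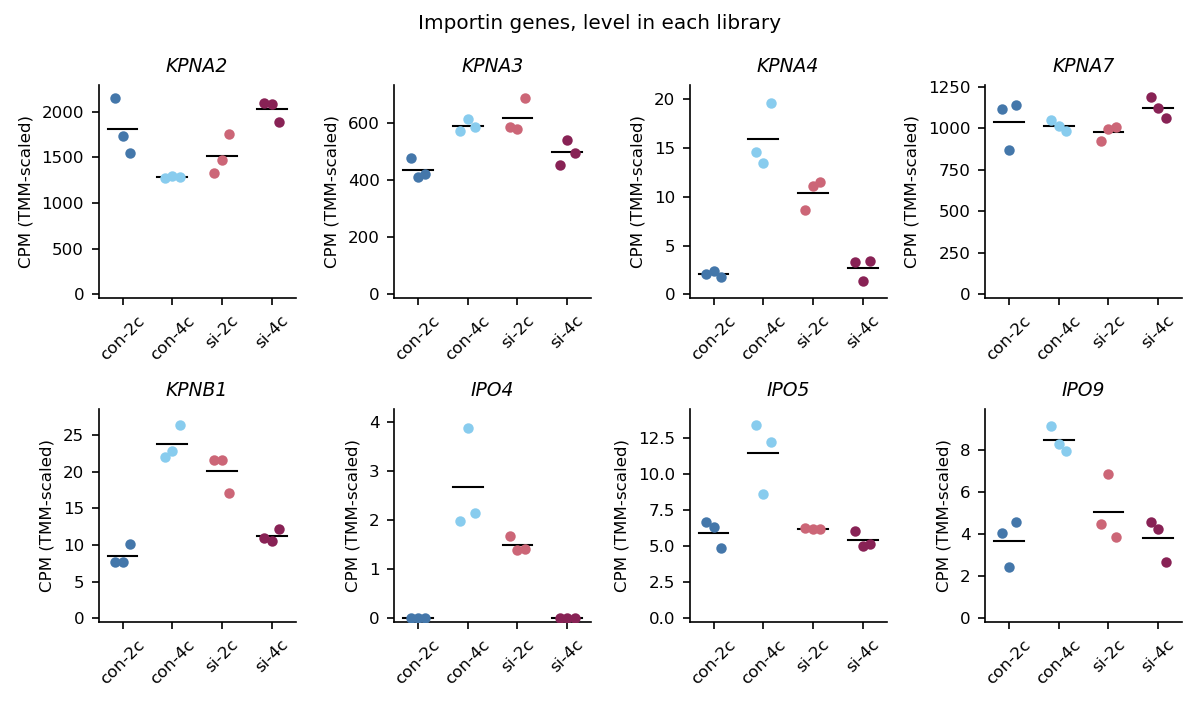
CPM (TMM-scaled, linear axes from 0) of 8 importin genes in each of the 12 libraries; points are libraries and bars are means of 3. KPNA4, KPNB1 and IPO4 stood higher in every con-4c and si-2c library than in any con-2c or si-4c library, KPNA2 was lowest in con-4c, and IPO5 and IPO9 were highest in con-4c.

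Exportins carry cargo out with RanGTP. XPO5 (ENSSSCG00000001679, chromosome 7, 38530704 to 38569558), the exporter of microRNA precursors, had 19.5, 23.9 and 21.0 CPM in the con-2c libraries, 35.7, 39.8 and 40.5 in those of con-4c, 26.6, 29.0 and 29.4 in those of si-2c and 17.3, 20.9 and 22.2 in those of si-4c. Con-4c was above si-2c, and si-2c above con-2c and si-4c, with no library out of order. The log2 fold change was 0.85 (SE 0.12, adjusted p 2.08e-05) in the control stage comparison, 0.40 (SE 0.12, adjusted p 0.0155) in the 2c si comparison and -0.94 (SE 0.12, adjusted p 6.64e-06) in the 4c si comparison. XPO7 was higher in con-4c and si-2c relative to con-2c, at 0.41 (SE 0.11, adjusted p 0.00651) and 0.41 (SE 0.11, adjusted p 0.00785). XPO1 (CRM1), the general exporter of proteins with leucine-rich signals, had 55.2 ± 0.232 CPM in the con-2c libraries, 62.4 ± 1.60 in those of con-4c, 58.0 ± 4.02 in those of si-2c and 60.3 ± 9.15 in those of si-4c and passed in no comparison, and neither did XPO4 and XPO6.

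None of the 3 regulators of the Ran cycle passed in any comparison with edgeR under TMM. RANBP1, which helps release RanGTP from carriers, had 33.2, 33.6 and 38.2 CPM in the con-2c libraries, 42.7, 40.8 and 39.6 in those of con-4c, 33.0, 37.8 and 25.8 in those of si-2c and 30.8, 34.0 and 36.8 in those of si-4c. Every con-4c library lay above all libraries of the other 3 groups, and the largest of its differences between groups was -0.35 (SE 0.12, adjusted p 0.104) in si-2c against con-4c. RCC1, the exchange factor on chromatin, had 1.34 ± 0.316 CPM in the con-2c libraries, 2.30 ± 0.579 in those of con-4c, 1.15 ± 0.753 in those of si-2c and 1.45 ± 0.309 in those of si-4c. RANGAP1 had group means between 0.399 and 0.712 CPM, from 48 to 72 counts a group, where the errors were wide (0.46 (SE 0.67, adjusted p 0.656) in the control stage comparison). Under library totals 1 of the 3 passed as higher in the control stage comparison. In the 4c si comparison 1 passed as lower under library totals, with RLE factors and with DESeq2, and DESeq2 also gave 1 lower in si-2c against con-4c.

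**Figure D4:**
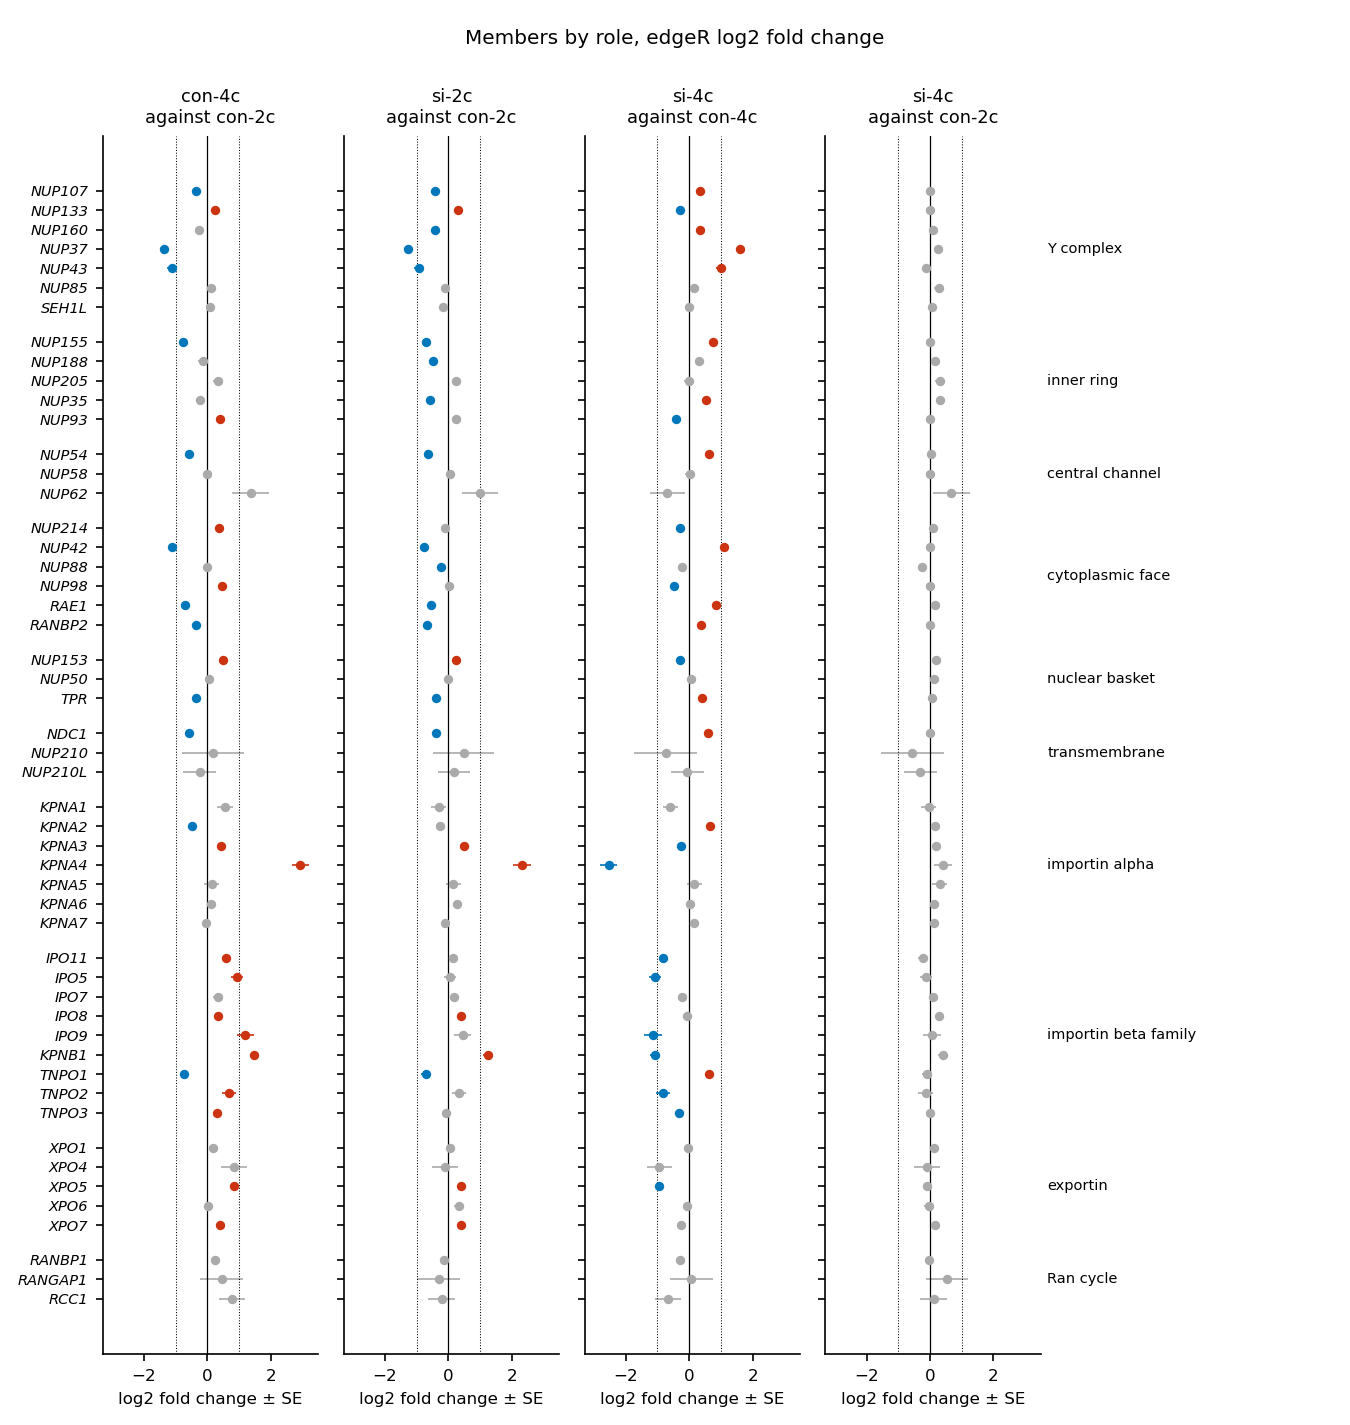
Log2 fold change ± SE (edgeR, TMM) of 51 members in 4 comparisons, ordered by role; red and blue points passed an adjusted p of 0.05 as higher and lower, grey points did not, and dotted lines mark the minimum fold of the calls. IPO4 (at 0 in con-2c and si-4c) and NUP62CL (few counts) are left out; no member passed in si-4c against con-2c, and the side of many pore genes with small differences turns under library totals (NDC1, NUP88 and TPR in the 2c si comparison).

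In the si libraries the stages were compared as the si stage comparison, which shares no library with the control stage comparison. NUP37 was called higher (edgeR log2 fold change 1.51 with SE 0.13, adjusted p 2.53e-07) and KPNA4 (-1.93 (SE 0.27, adjusted p 3.45e-05)) and IPO4 were called lower, which is 1 member against 1.47% of all genes and 2 members against 11.9%. At the adjusted p alone 16 members were higher (12.1% of all genes) and 6 lower (16.9%), and the libraries did not overlap in 29 members, against 42.8% of all genes. Of the 28 pore proteins 14 were higher and 1 lower under TMM, but 8 and 8 under library totals, and their median relative to that of all genes was 0.42 and 0.43. Of the 22 receptors 2 were higher and 5 lower, and 0 and 15 under library totals. Among all genes 3.57% were higher and 33.1% lower under that scaling.

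The difference between titles had opposite signs in the control and in the si libraries for 38 of the 53 members (71.7%), against 77% of all genes tested. Across the members without IPO4 the 2 differences had a Pearson correlation of -0.81 and a Spearman correlation of -0.72 (n = 52 genes, which share the 12 libraries and are not independent), and across all genes tested the Pearson correlation was -0.74. The 52 genes include NUP62CL, whose folds rest on few counts, and the correlation without it was not computed. All 18 members that passed in both comparisons had opposite signs, and so did 99.5% of the 3962 genes that passed in both. The members therefore stood close to all genes in this respect.

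**Figure D5:**
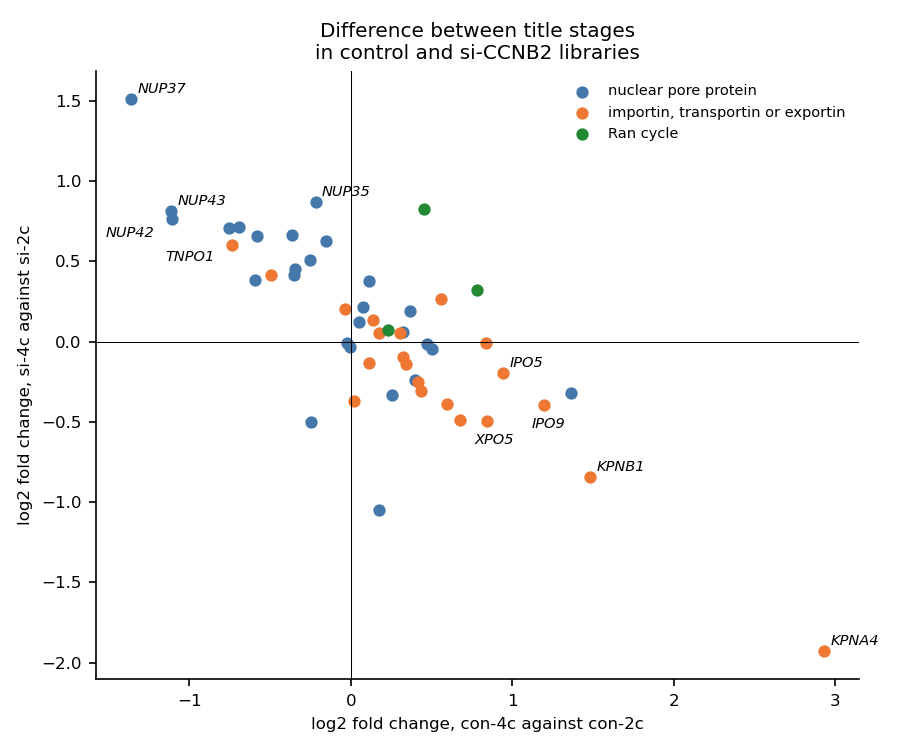
Log2 fold change of each member between titles in control libraries (horizontal axis, the control stage comparison) and in si-CCNB2 libraries (vertical axis, the si stage comparison), 1 point a gene, coloured by class; IPO4 and NUP62CL are left out. The points run from NUP37 at the upper left (-1.36, 1.51) to KPNA4 at the lower right (2.93, -1.93).

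The crossed comparisons set each si group against the control group of the other title. In si-4c against con-2c no member was called in either direction (all genes 0.0333% higher and 0.3% lower) and none passed the adjusted p alone (0.106% and 0.567%) with edgeR, nor with DESeq2. At an unadjusted p below 0.05 there were 6 higher and 1 lower (IPO8, KPNB1, NUP153, NUP205, NUP35, NUP88 and RAE1), where 4.95% and 6.35% of all genes were. The libraries did not overlap in 8 members, against 14.1% of all genes. KPNA4 had 0.40 (SE 0.28, adjusted p 0.674), KPNB1 0.40 (SE 0.15, adjusted p 0.289), NUP37 0.26 (SE 0.13, adjusted p 0.478), NUP42 0.00 (SE 0.10, adjusted p 1) and NUP155 0.00 (SE 0.09, adjusted p 1). A p that misses the threshold does not show equal levels, and the 3 libraries a group left standard errors of this size.

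In si-2c against con-4c no member was called either (all genes 0.161% higher and 1.63% lower) with edgeR or with DESeq2, and 3 were higher and 18 lower at an unadjusted p below 0.05 (8.07% and 11.3% of all genes). At the adjusted p alone NUP42 was higher (1 member, against 2.22% of all genes), at 0.34 (SE 0.10, adjusted p 0.0485). NUP214, IPO5, NUP98, XPO5, KPNA1 and RANBP2 were lower (6 members, against 5.32%). These counts moved with the processing, to 3 higher and 2 lower under library totals (4.98% and 3.45% of all genes), 1 and 12 with DESeq2 (3.56% and 7.79%), and 0 to 1 and 2 to 10 with 1 library left out. NUP42 and RANBP2 each lost the pass in 10 of those 12 reruns, KPNA1 in 5, XPO5 in 4, NUP98 in 3 and IPO5 in 1, and KPNA1, NUP98, RANBP2 and XPO5 lost it under library totals. With the replicate number as a block NUP42 and RANBP2 lost it too, which left 0 higher and 5 lower (1.67% and 4.57% of all genes). Of those that passed, the largest in size were IPO5 at -0.88 (SE 0.19, adjusted p 0.00647) and KPNA1 at -0.86 (SE 0.24, adjusted p 0.0364), and NUP214 had -0.48 (SE 0.07, adjusted p 0.000567). RCC1 and XPO4 had larger differences with wider errors that did not pass, at -0.99 (SE 0.42, adjusted p 0.202) and -0.93 (SE 0.40, adjusted p 0.204). Removing replicate 1 or replicate 2 of con-4c, or replicate 3 of si-2c, added 1 called member. The libraries did not overlap in 20 members, against 27.1% of all genes. In NUP214, IPO5, NUP98, XPO5 and KPNA1 con-4c had the highest mean of the 4 groups, whereas RANBP2 had its lowest mean in si-2c and NUP42 its lowest in con-4c.

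Whether the si-CCNB2 difference itself differed between titles was tested as an interaction. It was called positive, that is more positive under the 4c title, in 9 members (9.87% of all genes), and negative in 8 (22.5%), together 17 of 53 (32.1%, against 32.4% of all genes). Those called positive were NUP37, NUP43, NUP42, RAE1, NUP155, NUP54, RANBP2, NUP35 and TNPO1. Those called negative were KPNA4, KPNB1, IPO4, IPO5, IPO9, TNPO2, XPO5 and, from few counts, NUP62CL. At the adjusted p alone it was positive in 15 members (18.2% of all genes), with NDC1, TPR, NUP107, NUP160, NUP188 and KPNA2 added, and negative in 16 (27.3%), with NUP93, NUP98, NUP133, NUP153, KPNA3, IPO8, IPO11 and XPO7 added. The 6 added positive members did not pass under library totals. Under that scaling 3 were called positive and 20 negative, the median of all genes moving from -0.23 to -0.88. Of the 17995 genes tested 6622 were called under it, 8.67% of them positive.

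Over the 6 comparisons between pairs of groups, 35 of the 53 members passed the adjusted p at least once (66%, against 48.7% of all genes tested) and 18 passed in none. The latter were NUP50, NUP58, NUP62, NUP62CL, NUP205, NUP210, NUP210L, SEH1L, KPNA5, KPNA6, KPNA7, IPO7, XPO1, XPO4, XPO6 and the 3 Ran regulators.

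Of 29 further genes of nuclear transport that were tested and are not members, among them mRNA export factors and relatives of the carriers, 3 were called higher and 1 lower in the control stage comparison (14.4% and 3.25% of all genes), 2 higher and 1 lower in the 2c si comparison (10.7% and 1.8%), and 0 higher and 4 lower in the 4c si comparison (3.12% and 15.8%). At the adjusted p alone the balance was the other way, with 4 higher and 9 lower (20.7% and 15.1% of all genes), 4 and 8 (16.6% and 12.3%), and 8 and 6 (15.1% and 21.7%). NXF1, the main mRNA exporter, had 4.77, 5.62 and 3.87 CPM in the con-2c libraries, 28.4, 29.0 and 29.5 in those of con-4c, 23.0, 26.0 and 23.4 in those of si-2c and 4.56, 3.09 and 4.78 in those of si-4c, at 2.61 (SE 0.17, adjusted p 2.28e-09), 2.34 (SE 0.16, adjusted p 1.43e-08) and -2.81 (SE 0.17, adjusted p 9.29e-10) in these comparisons. ALYREF, the adaptor that loads NXF1 on mRNA, had 1.94, 1.69 and 1.75 CPM in the con-2c libraries, 15.4, 13.4 and 13.9 in those of con-4c, 10.6, 10.6 and 8.02 in those of si-2c and 0.570, 1.19 and 0.986 in those of si-4c, at 2.99 (SE 0.22, adjusted p 1.56e-08), 2.44 (SE 0.22, adjusted p 2.91e-07) and -3.95 (SE 0.24, adjusted p 9.61e-10). In both genes the con-4c and si-2c libraries lay above the con-2c and si-4c libraries, as in KPNA4. RANBP6, an importin beta relative, was called higher in con-4c relative to con-2c (1.08 (SE 0.31, adjusted p 0.0123)) and lower in si-4c relative to con-4c (-1.28 (SE 0.32, adjusted p 0.00409)), and NXT1, the partner of NXF1, lower in si-4c relative to con-4c from 96 and 7 counts a group (-3.87 (SE 1.29, adjusted p 0.0271)). SARNP, an mRNA export factor, was the lower gene in the first 2 comparisons (-1.04 (SE 0.10, adjusted p 5.16e-07) and -1.24 (SE 0.10, adjusted p 1.16e-07)).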

How the data were processed

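Amplified cDNA libraries (SMART-seq) of 12 pools of porcine embryos, 3 for each of 4 groups, were analysed from a table of raw read counts per Ensembl gene deposited by the authors, whole numbers with no normalization. The submitters' processing notes name cutadapt 1.9, HISAT2 2.2.1, StringTie 2.1.6, DESeq2, edgeR and the build Sscrofa11.1. The annotation release, the counting program and the use of strand are not given in the sources used here, so reads of overlapping, antisense or near-identical genes could be assigned to either. PCR duplicates could not be removed, since the libraries carry no molecular identifiers.

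Tests used edgeR 4.0.16 in R 4.3.3. The filterByExpr function kept 17995 of 29329 genes, TMM factors were 0.852 to 1.21, and a quasi-likelihood model of 4 group means was fitted to all 12 libraries (common dispersion 0.0745, biological coefficient of variation 27.3%). P-values were adjusted by Benjamini-Hochberg over all genes tested in each comparison, and calls also needed a log2 fold change of at least 1 in size. The SE of a log2 fold change was its value over the root of its F statistic. Errors of CPM are SDs over 3 libraries. Members' coordinates came from the RefSeq gene table of Sscrofa11.1, matched by symbol (50 of 53), and 14637 gene identifiers were found in the name table. Replicates of a group were not copies of each other (chi-square of their counts, over its degrees of freedom, 7.22 to 42.7, highest for pairs with si-2c replicate 3), so each library counted once. Alternatives were DESeq2 1.42.0, RLE factors, library totals, no filter on low counts, the compared groups alone, a replicate block, no minimum fold and leaving out each library.

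Named genes were CCNB2, the 4 called members with the smallest p in each direction of the 3 main comparisons, the member of each role with the smallest p, all importins alpha and members that passed in crossed comparisons. Others were added where their values were needed to describe a role. Members, roles and gene lists were chosen with earlier results of these data known. Roles are a working grouping. No circular RNA was analysed here.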

Additional observations from a re-analysis of the deposited data

Results flagged for a closer look

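In 17 of the 53 members the difference between si-CCNB2 and control libraries was not the same under both titles by the interaction test (edgeR, adjusted p below 0.05 and an absolute log2 difference of at least 1). Values are the log2 fold change of si-4c against con-4c minus that of si-2c against con-2c. This is 32.1% of the members, and 32.4% of all genes met the same rule, so the share of members is that of all genes. By sign the rule was met by 9 members and 9.87% of all genes (positive) and by 8 members and 22.5% of all genes (negative).

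Among pore proteins the difference was 2.87 for NUP37 (SE 0.19, edgeR adjusted p 2e-09), 1.93 for NUP43, 1.87 for NUP42, 1.46 for NUP155, 1.40 for RAE1, 1.24 for NUP54, 1.09 for NUP35 and 1.03 for RANBP2. It was positive in each of these, since si-2c lay below con-2c and si-4c above con-4c. NUP62CL gave -6.75 (SE 2.25, edgeR adjusted p 0.0216) from 11 counts in con-2c and 4 in si-4c over the 3 libraries, a fitted value that depends on the prior count, and without con-4c replicate 1 it no longer passed.

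Among transport receptors the difference was -4.87 for KPNA4 (SE 0.39, edgeR adjusted p 2.08e-08), -2.33 for KPNB1, -1.59 for IPO9, -1.34 for XPO5, -1.16 for TNPO2, -1.14 for IPO5 and, with the opposite sign, 1.34 for TNPO1. IPO4 had an edgeR adjusted p of 1.04e-07, with no fold given because con-2c and si-4c held no count. Over the 17 genes the edgeR adjusted p was at most 0.0216, and at most 0.00625 without NUP62CL. The interaction of CCNB2 itself was 0.88 (SE 0.18, edgeR adjusted p 0.000789), under the minimum fold.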

How the results depend on the processing

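Scaling by library totals instead of TMM gave, for called members, 7 higher and 1 lower in the control stage comparison, 0 lower in the 2c si comparison, 1 higher and 9 lower in the 4c si comparison, 4 lower in the si stage comparison, and 3 positive and 20 negative interactions. By construction it leaves in the shift of all genes that TMM removes. Of the 17995 genes tested, it called 3446 in the control stage comparison (93.4% of them higher) and 3086 in the 2c si comparison (98.1%). It called 3603 in the 4c si comparison (6.41% of them higher) and 3146 in the si stage comparison (1.59%). For the interaction 6622 genes were called (8.67% of them positive). Without a minimum fold the counts of members higher and lower were 17 and 12 in the control stage comparison, 9 and 15 in the 2c si comparison, 14 and 15 in the 4c si comparison, 16 and 6 in the si stage comparison, 1 and 6 in si-2c against con-4c, and 15 and 16 for the interaction. DESeq2, RLE factors, no filter on low counts, and a fit to the compared groups alone kept the called counts within 1.5 times those reported.

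Leaving out each library in turn gave 3 to 6 higher and 2 to 3 lower members in the control stage comparison, 3 to 4 and 1 to 2 in the 2c si comparison (2 lower without con-2c replicate 3 or si-2c replicate 3), 2 to 3 and 4 to 6 in the 4c si comparison, 1 to 2 and 2 to 3 in the si stage comparison (2 higher without si-2c replicate 3), 0 and 0 in si-4c against con-2c, 0 and 0 to 1 in si-2c against con-4c, and 8 to 11 and 7 to 9 for the interaction. Of 378 reruns of the 21 called pairs of a member and a comparison at the same thresholds, 370 kept the call, 8 lost it with the direction kept, and 0 reversed.

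Libraries with the same replicate number did not deviate together (correlations of -0.0495 to 0.029 over 18 pairs, against -0.0389 to 0.0456 for other pairs), so no pairing by number was visible. Deviations from means of 3 libraries cannot exclude that equal numbers mark a shared batch. With the replicate number as a block, the calls were 4 higher and 3 lower in the control stage comparison, 3 and 1 in the 2c si comparison, 2 and 5 in the 4c si comparison, and 9 and 9 for the interaction. Genes with few counts, such as NUP62CL, RANGAP1 and NUP210, carry wide errors, which limits what was detectable there.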

Other observations

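Of 17 tested genes of the nuclear envelope (lamins, LEM-domain and torsin-related proteins, none of them members), 0 were called by edgeR in any comparison. Of all genes, 14.4% were called higher and 3.25% lower in the control stage comparison. The shares were 10.7% and 1.8% in the 2c si comparison, and 3.12% and 15.8% in the 4c si comparison. At the adjusted p alone 4 were lower in con-4c relative to con-2c (15.1% of all genes), 1 was lower in si-2c relative to con-2c (12.3%), and 5 were higher in si-4c relative to con-4c (15.1%). TOR1A, the torsin ATPase of the envelope lumen, had the largest of these differences, at -0.62 in the control stage comparison (edgeR adjusted p 0.0068) and 0.76 in the 4c si comparison (edgeR adjusted p 0.00148). TOR1AIP1, its activator at the inner membrane, was -0.29, -0.37 and 0.48 in the control stage, 2c si and 4c si comparisons (edgeR adjusted p 0.0367, 0.0122 and 0.00166). The first and the last comparison share the con-4c libraries.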
